A study of Homo sapiens with 6 samples.

Results

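The lysosome and autophagy genes described here are 35 genes listed by name and role, with earlier results of these data known but with no measured value in the rule: 11 enzymes and carriers of the lysosomal lumen, 4 proteins of the lysosomal membrane, 3 subunits of the proton pump V-ATPase, the transcription factors *TFEB* and *TFE3*, 5 genes that start the autophagosome, 7 genes of the ATG8 family and its conjugation, and 3 autophagy receptors. All 35 were found under their current symbols among the 63677 genes counted, and all 35 were among the 12507 genes that passed the filter on low counts. RNA was sequenced from LoVo, an established human colorectal cancer cell line grown in culture. In the *SNHG15* siRNA group, the cells received 2 siRNAs against the lncRNA *SNHG15* together, so that what each siRNA did cannot be told apart. In the scramble group they received a negative control siRNA, and both groups were transfected by lipofection at 25 nM of siRNA and collected after 48 h. Each group held 3 libraries, which the study's methods call biological replicates.

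Lysosomes are acidic organelles in which hydrolases break down protein, lipid and glycan, and the V-ATPase pumps in the protons that keep them acidic. Autophagy encloses cytoplasm in a double membrane decorated with ATG8 family proteins and delivers it to the lysosome, and receptors such as p62 tie the cargo to that membrane. TFEB and TFE3 bind an extended E-box known as the CLEAR element near many genes of both systems. In colorectal cancer cells, as in other cells, the same organelles supply nutrients and remove damaged proteins.

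The libraries held 3446922 to 10256710 counts on genes, with scramble replicate 3 the shallowest and scramble replicate 2 the deepest. Levels are given as CPM, a gene's counts scaled to a common library total with TMM factors, and as such are shares of the library's RNA: in bulk RNA, fewer cells that carry a transcript and less of it per cell cannot be told apart. *SNHG15* was at 290, 277 and 261 CPM in scramble replicates 1 to 3 and at 77.2, 83.1 and 87.2 CPM in the siRNA replicates. The 2 groups lay far apart, and the mean of the siRNA libraries was 29.9% of the scramble mean, with a log2 fold change of -1.74 (SE 0.12, adjusted p = 2.62e-05). Of 10 markers of colorectal epithelium, *CDH1*, *KRT8*, *KRT18* and *CDX2* were measured and their list summed to 102 to 110 CPM in the scramble and 106 to 117 CPM in the siRNA libraries. The other 6, *EPCAM*, *KRT19*, *CDX1*, *VIL1*, *CEACAM5* and *LGALS4*, had at most 4 counts in any library, and *KRT19*, *CDX1* and *VIL1* were listed at 0 in all 6, which goes against the label for most of these markers. Genes that nearly every cell uses were near 0 too: *ATP6V0C* and *NCOA4* were listed at 0 in all 6 libraries and *GABARAP* had at most 9 counts. Whether the counting left genes out was not tested, so these zeros alone do not show that a transcript was absent. Markers of fibroblasts summed to at most 1.25 CPM in any library, and all 6 leukocyte markers and all 3 endothelial markers found had at most 3 counts.

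After *SNHG15* depletion, 3 of the 35 genes changed: the autophagy receptor gene *SQSTM1* and the V-ATPase gene *ATP6V1A* rose 1.73-fold and 1.76-fold, and the saposin precursor gene *PSAP* fell to 0.659 of its scramble level. The other 32 did not pass an adjusted p of 0.05 in edgeR's quasi-likelihood test. The 3 genes make up 8.57% of the list, where 671 of all 12507 genes tested, or 5.36%, passed in the same fit, 3.13% higher and 2.23% lower. An unadjusted p under 0.05 was found for 10 of the 35 genes, 7 higher and 3 lower, and for 22.5% of all genes, 12% higher and 10.5% lower. With DESeq2, a second count model, these 3 and the gene of the aspartic protease cathepsin D, *CTSD*, passed, 4 of 35 or 11.4%, against 5.8% of the 13118 genes to which DESeq2 gave an adjusted p. The median log2 fold change of the 35 genes was 0.10, against 0.00 over all genes tested, with 19 genes above 0 and 16 below. With upper-quartile scaling these counts were 20 and 15, because *GABARAPL2* moved across 0. The siRNA and scramble libraries did not overlap for 14 of the 35 genes, or 40.0%, 9 of them higher and 5 lower in the siRNA libraries. Over all genes tested 28.8% did not overlap, 14.7% higher and 14.1% lower. For a single gene, 3 libraries against 3 cannot give an exact permutation p below 0.1, so the calls rest on the spread that edgeR estimates with information from all genes.

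**Figure D1:**
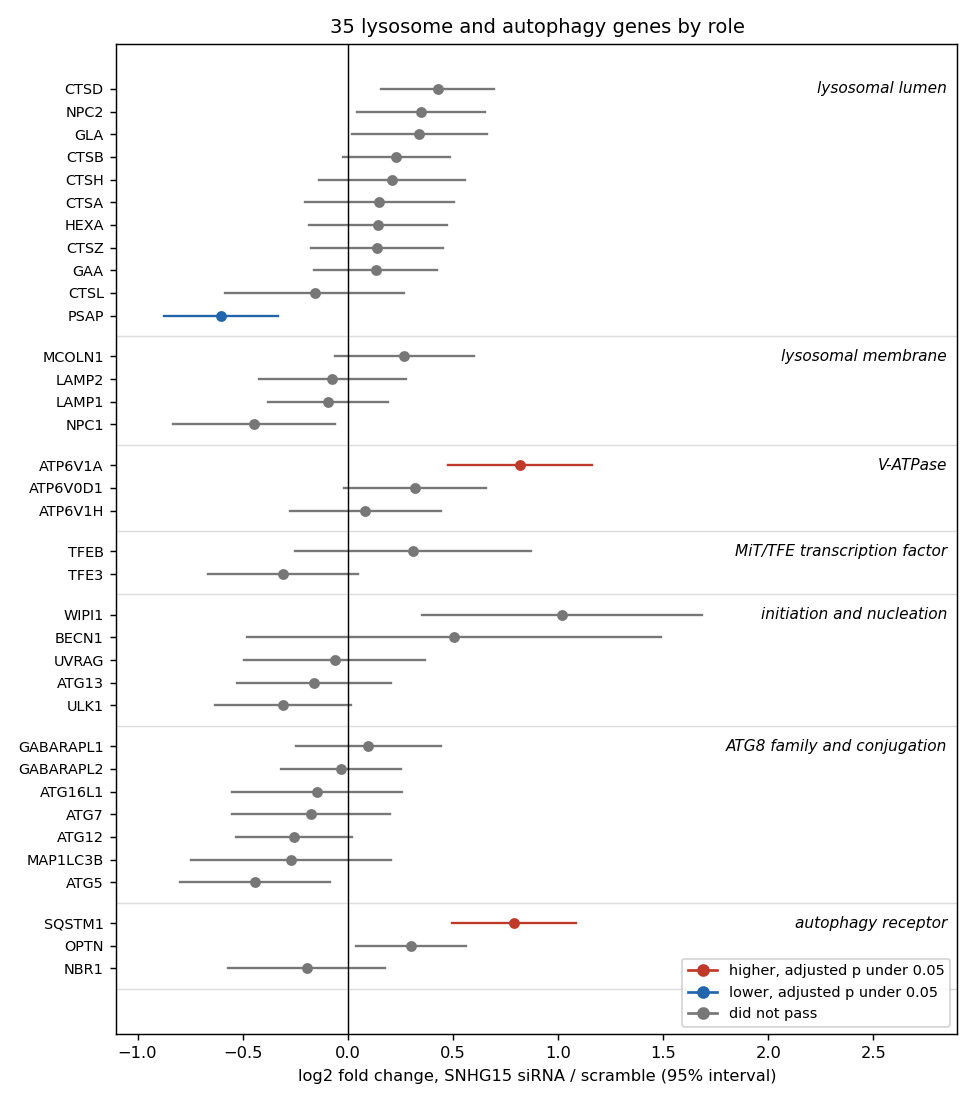
The log2 fold change of each of the 35 genes, siRNA against scramble, with its 95% interval on the x axis and the genes grouped by role on the y axis. *ATP6V1A* and *SQSTM1* (red) lie above 0 and *PSAP* (blue) below it, while *WIPI1* has the largest value, 1.02, with an interval from 0.35 to 1.68 and did not pass.

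Leaving out 1 library at a time, *SQSTM1* passed in all 6 fits, with adjusted p-values in edgeR from 0.0048 to 0.048, the largest just under the threshold. *ATP6V1A* did not pass without scramble replicate 2 (adjusted p = 0.0722) or scramble replicate 3 (adjusted p = 0.0558). *PSAP* did not pass without scramble replicate 1 (adjusted p = 0.0581) or scramble replicate 2 (adjusted p = 0.0986). Without scramble replicate 2, then, *SQSTM1* was the 1 gene of the 35 past the threshold, and the count over all genes was 139.

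The CLEAR element holds the E-box CACGTG, which reads the same on both strands, and the sequences around this box are shown because TFEB and TFE3 are known to bind it. MYC is known to bind the same letters. RefSeq promoters, each 250 bases before to 50 after a gene's start, were matched for 28 of the 35 genes. The first entry of each listed gene was read, and any further entry of the same gene was not searched. The comparison set was every full-length entry, with no limit to genes of like kind or to genes tested here. The shares below therefore rest on unlike sets. CACGTG occurred in 6 of these 28 promoters (21.4%), against 7.26% of 35116 promoters, and all 6 also held the longer form TCACGTG on one strand or the other, against 3.71% of all promoters. Of 143 other lysosome and autophagy gene promoters, 20.3% held CACGTG. The copy nearest the start is printed for each of the 6 genes, in the direction of transcription, with the E-box in capitals. The positions are on GRCh37, found by exact match, and place each box upstream of the canonical GENCODE transcript, except that the *LAMP1* box begins 1 base before the start and runs across it.

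CTSA, chr20:44519937-44519966, plus strand: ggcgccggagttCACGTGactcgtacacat

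CTSD, chr11:1785187-1785216, minus strand: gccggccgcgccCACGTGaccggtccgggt

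GAA, chr17:78075337-78075366, plus strand: gctcccgccggtCACGTGacccgcctctgc

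LAMP1, chr13:113951541-113951570, plus strand: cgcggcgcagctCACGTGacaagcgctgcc

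MCOLN1, chr19:7587484-7587513, plus strand: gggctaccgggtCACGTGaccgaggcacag

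ATP6V0D1, chr16:67515102-67515131, minus strand: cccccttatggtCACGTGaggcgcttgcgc

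The *LAMP1* promoter held 6 copies of the box, those of *CTSA*, *GAA* and *MCOLN1* 2 each, and those of *CTSD* and *ATP6V0D1* 1 each. The log2 fold changes of the 6 genes were between -0.10 for *LAMP1* and 0.43 for *CTSD*, and 5 of the 6 were above 0. Of the 35 genes 19 were above 0 and 16 below, and of all genes tested 6260 were above and 6247 below. Whether the box went with the fold change was not tested. In edgeR the 6 genes did not pass, and of them *CTSD* alone had an unadjusted p under 0.05 and passed with DESeq2. The promoter entry read for *SQSTM1* held no CACGTG, and there was no promoter entry for *PSAP* or *ATP6V1A*. A match to these letters is a description of the sequence and not of a bound site.

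Among the genes of the lysosomal lumen, *PSAP* fell and the rest lay mostly slightly above 0. *PSAP* (ENSG00000197746, chromosome 10 from 73576055 to 73611008 on GRCh37) encodes prosaposin, which is cut into the saposins that help hydrolases reach their lipid substrates. It was at 548, 648 and 533 CPM in scramble replicates 1 to 3 and at 354, 411 and 374 CPM in siRNA replicates 1 to 3. Every siRNA library was below every scramble library. The means were 576 ± 62.3 and 380 ± 28.8 CPM (SD, n = 3 each), the log2 fold change was -0.60 (SE 0.13) and its adjusted p was 0.017. With 1764 to 6512 counts in each library, *PSAP* was among the most deeply counted genes of the list.

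*CTSD* was higher in each siRNA library than in any scramble library, but its adjusted p was 0.0632. Its levels were 317, 350 and 346 CPM in the scramble and 484, 480 and 397 CPM in the siRNA libraries, a log2 fold change of 0.43 (SE 0.12). The third siRNA library lay nearest the scramble libraries, and without it *CTSD* passed with an adjusted p of 0.0384 in edgeR. *NPC2*, whose product carries cholesterol in the lumen, was at 34.7, 31.8 and 31.8 CPM in the scramble and 46.4, 38.1 and 40.8 CPM in the siRNA libraries. *GLA*, the gene of alpha-galactosidase A, was at 41.7, 33.3 and 40.5 against 55.0, 45.3 and 45.5 CPM. Neither gene's groups overlapped, and the first siRNA library was the highest for both, as it was for *CTSD*. Their log2 fold changes were 0.35 for *NPC2* (adjusted p = 0.163) and 0.34 for *GLA* (adjusted p = 0.195).

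*CTSB*, a cysteine protease gene, was at 137, 117 and 129 CPM in the scramble and at 152, 148 and 148 CPM in the siRNA libraries. Its groups did not overlap either, with a log2 fold change of 0.23 and an adjusted p of 0.263. Per kilobase of its canonical transcript, *CTSL*, the gene of the cysteine protease cathepsin L, was the most abundant of all 35 genes in the scramble libraries, at 542 CPM per kb. It was at 904, 1000.2 and 784 CPM in the scramble libraries and at 517, 948 and 945 CPM in the siRNA libraries. The first siRNA library was the lowest of all 6 and the other siRNA libraries lay within the scramble range. The log2 fold change of *CTSL* was -0.16 (95% interval -0.58 to 0.27), and without siRNA replicate 1 it was 0.08. The remaining lumen genes were *CTSA*, *CTSH* and *CTSZ*, which encode further cathepsins, *HEXA*, which encodes the alpha subunit of beta-hexosaminidase, and *GAA*, the acid alpha-glucosidase gene. Their log2 fold changes ran from 0.13 for *GAA* to 0.21 for *CTSH*, their groups overlapped and their adjusted p-values were 0.467 to 0.63.

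**Figure D2:**
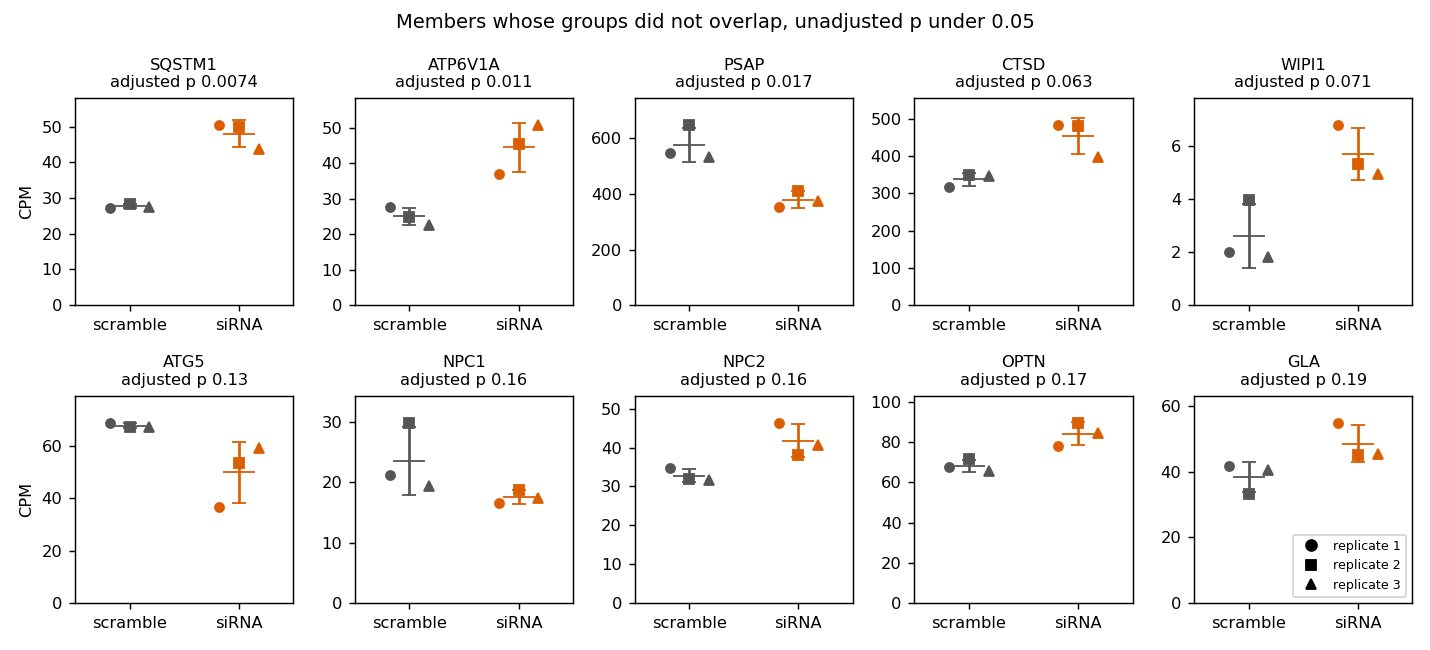
CPM in each library (points, shaped by replicate number) for the 10 genes whose groups did not overlap and whose unadjusted p was under 0.05, with bars for the mean and SD of 3 libraries, on a y axis that starts at 0. The scramble libraries of *SQSTM1* lie between 27.3 and 28.3 CPM and its siRNA libraries between 43.8 and 50.5 CPM. Same-numbered libraries were not treated as pairs in the main fit.

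The 4 membrane genes did not pass in edgeR or DESeq2, and *NPC1* alone had an unadjusted p under 0.05. *NPC1*, whose product exports cholesterol across the lysosomal membrane, was at 21.2, 29.8 and 19.4 CPM in the scramble and 16.5, 18.7 and 17.4 CPM in the siRNA libraries. Every siRNA library was below every scramble library, though scramble replicate 3 was close to them, and the log2 fold change was -0.45 (SE 0.18, adjusted p = 0.158). *NPC1* and *NPC2*, which act in turn in cholesterol export, thus had values on opposite sides of 0, neither past the threshold. *MCOLN1*, the gene of the calcium channel TRPML1, was at 14.9, 15.9 and 18.4 CPM against 19.4, 20.1 and 19.0 CPM. Its siRNA libraries were just above its scramble libraries (log2 fold change 0.27, adjusted p = 0.317). *LAMP1* and *LAMP2* encode the abundant glycoproteins that line the membrane. *LAMP1*, the most abundant membrane gene per kilobase at 73.6 CPM per kb, was at 190, 210.5 and 196 CPM in the scramble and 166, 218 and 174 CPM in the siRNA libraries. The siRNA libraries reached both above and below the scramble range. The log2 fold change was -0.10 for *LAMP1* (95% interval -0.38 to 0.19) and -0.07 for *LAMP2* (-0.42 to 0.28).

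Of the 3 V-ATPase genes, *ATP6V1A* rose. *ATP6V1A* (ENSG00000114573, chromosome 3 from 113465617 to 113530903 on GRCh37) encodes the subunit of the cytosolic V1 sector that holds the site of ATP hydrolysis. It was at 27.5, 24.8 and 22.7 CPM in scramble replicates 1 to 3 and at 37.02, 45.5 and 50.7 CPM in siRNA replicates 1 to 3. The lowest siRNA library was above the highest scramble library. The means were 25.0 ± 2.44 and 44.4 ± 6.92 CPM (SD, n = 3 each), from 75 to 432 counts per library. On the log2 scale *ATP6V1A* rose by 0.82 (SE 0.16, adjusted p = 0.0114). *ATP6V0D1*, a subunit of the membrane V0 sector, was at 61.3, 46.4 and 64.1 CPM against 81.5, 68.8 and 62.7 CPM. The third siRNA library fell within the scramble range, and the log2 fold change was 0.32 (95% interval -0.02 to 0.66). *ATP6V1H*, a regulatory V1 subunit and the most abundant of the 3 per kilobase at 83.0 CPM per kb, was at 177, 197 and 154 CPM against 138, 216 and 207 CPM. Its siRNA libraries lay on both sides of its scramble libraries, with a log2 fold change of 0.08 (95% interval -0.28 to 0.44).

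*TFEB* and *TFE3* had values on opposite sides of 0, and neither had an unadjusted p under 0.05 in edgeR or passed with DESeq2. *TFEB* was counted thinly, with 13 to 47 counts a library, at 4.57, 3.88 and 3.93 CPM in the scramble and 6.52, 3.74 and 5.17 CPM in the siRNA libraries. One siRNA library was below all the scramble libraries and the others above them, so the log2 fold change of 0.31 had a wide interval, from -0.25 to 0.87. *TFE3*, the more abundant of the pair at 22.4 CPM per kb, was at 73.1, 91.3 and 57.2 CPM against 56.1, 57.2 and 67.4 CPM. Its groups overlapped, and the log2 fold change was -0.31 (95% interval -0.66 to 0.05). RNA levels say nothing of where in the cell these proteins were, which is the main known point of their control.

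**Figure D3:**
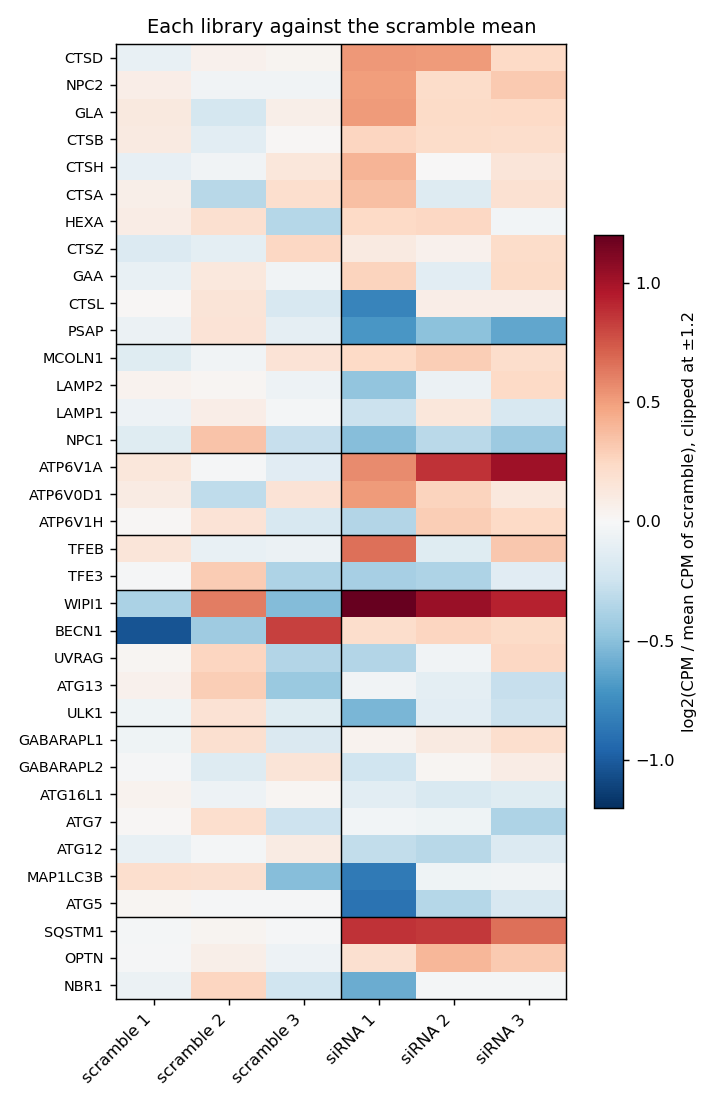
Each library's CPM against the scramble mean of the same gene, as log2, for the 35 genes in rows grouped by role and the 6 libraries in columns. *SQSTM1*, *ATP6V1A* and *WIPI1* are red in all 3 siRNA libraries and *PSAP* is blue in all 3, and the first siRNA library holds the deepest blue of that group for *CTSL*, *MAP1LC3B* and *ATG5*.

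Among the 5 genes that start the autophagosome, *WIPI1* had the largest fold change of the whole list and did not pass. WIPI1 binds phosphatidylinositol 3-phosphate on the forming membrane. Its gene was at 1.99, 3.98 and 1.81 CPM in the scramble and at 6.79, 5.32 and 4.93 CPM in the siRNA libraries. Every siRNA library was above every scramble library, but with 6 to 49 counts a library. The log2 fold change was 1.02 (SE 0.31) with an adjusted p of 0.0712, and *WIPI1* passed in the fit with no filter on low counts (adjusted p = 0.0177). *ATG13*, a subunit of the ULK1 kinase complex and the most abundant of the 5 per kilobase at 14.3 CPM per kb, was at 63.2, 74.5 and 44.8 CPM against 58.9, 56.1 and 50.3 CPM. The siRNA libraries all fell within the scramble range (log2 fold change -0.16, 95% interval -0.53 to 0.20). *ULK1*, the kinase of that complex, had a log2 fold change of -0.31 (95% interval -0.63 to 0.02), and *UVRAG*, a partner of Beclin 1, one of -0.06 (-0.49 to 0.37). *BECN1* itself, the Beclin 1 gene, had only 5 to 12 counts a library, the fewest of the list. Its log2 fold change of 0.51 had an interval from -0.48 to 1.49, so that no change and a change within this interval could not be told apart.

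Of the 7 genes of the ATG8 family and its conjugation, 6 had log2 fold changes below 0 (5 with upper-quartile scaling), with a median of -0.17. *ATG5* alone had an unadjusted p under 0.05, and the 7 did not pass in edgeR or DESeq2. ATG5 is joined to ATG12 and, with ATG16L1, places the lipid on ATG8 proteins. *ATG5* was at 69.0, 67.3 and 67.4 CPM in the scramble and at 36.9, 53.5 and 59.4 CPM in the siRNA libraries. The scramble libraries were tight and the siRNA libraries all lower and widely spread, the first of them lowest, with a log2 fold change of -0.44 (SE 0.17, adjusted p = 0.135). *ATG12* was at 62.7, 65.4 and 71.4 CPM against 54.1, 52.9 and 59.4 CPM, and *ATG16L1* at 8.55, 7.96 and 8.47 CPM against 7.62, 7.34 and 7.52 CPM. Each of these 3 genes was lower in all siRNA libraries than in any scramble library, as were 14.1% of all genes tested, and they did not pass. The log2 fold changes were -0.26 for *ATG12* (adjusted p = 0.251) and -0.15 for *ATG16L1* (adjusted p = 0.685). *ATG7*, the E1-like enzyme of the pathway, had a log2 fold change of -0.17 and overlapping groups.

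*MAP1LC3B* encodes LC3B, the ATG8 protein most used as a marker of autophagosomes, and was the most abundant of this role at 189 CPM per kb. It was at 467, 465 and 285 CPM in the scramble and 225, 392 and 394 CPM in the siRNA libraries. Both groups held 1 library far below the other 2, scramble replicate 3 and siRNA replicate 1, and the log2 fold change of -0.27 had an interval from -0.75 to 0.21. *GABARAPL2* followed at 147 CPM per kb, with 141, 128 and 158 CPM against 121, 145 and 152 CPM. Its log2 fold change of -0.03 lay between -0.32 and 0.25, and that of *GABARAPL1* was 0.10 (-0.25 to 0.44). *MAP1LC3B2*, a near-identical copy of *MAP1LC3B*, was listed at 0 counts in all 6 libraries.

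Of the 3 receptors, *SQSTM1* rose. *SQSTM1* (ENSG00000161011, chromosome 5 from 179233398 to 179265078 on GRCh37) encodes p62, which binds ubiquitin on cargo and LC3 on the membrane and is itself degraded by autophagy. It was at 27.3, 28.3 and 27.5 CPM in scramble replicates 1 to 3 and at 50.5, 49.9 and 43.8 CPM in siRNA replicates 1 to 3. The scramble libraries were nearly equal and each siRNA library was well above them. The means were 27.7 ± 0.551 and 48.1 ± 3.69 CPM (SD, n = 3 each), from 91 to 373 counts a library. *SQSTM1* rose by 0.79 on the log2 scale (SE 0.14) and had the smallest adjusted p of the list, 0.0074. *OPTN*, the optineurin gene, was at 67.6, 71.6 and 65.6 CPM against 78.2, 89.8 and 84.8 CPM. Its groups did not overlap, and its log2 fold change of 0.30 (SE 0.12) had an adjusted p of 0.167. *NBR1*, the most abundant receptor gene per kilobase at 24.5 CPM per kb, was at 108, 135 and 95.9 CPM against 74.9, 111 and 111 CPM. Its siRNA libraries lay below and within the scramble range (log2 fold change -0.20, 95% interval -0.57 to 0.18).

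**Figure D4:**
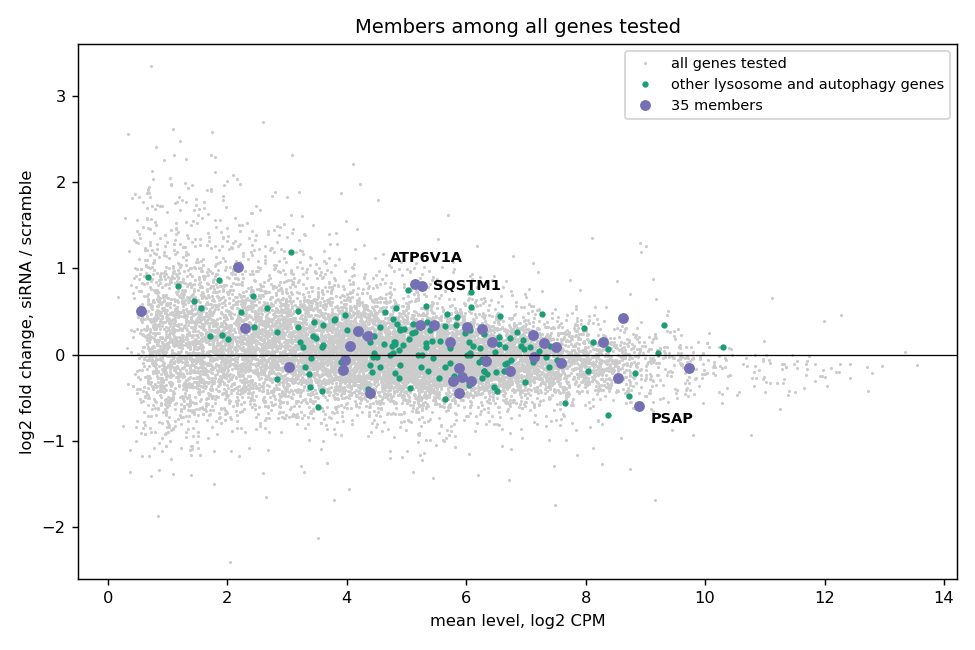
The mean level (log2 CPM, x axis) against the log2 fold change (siRNA against scramble, y axis) for all 12507 genes tested (grey), the 35 genes (purple) and 152 other lysosome and autophagy genes (green). The 35 genes lie within the spread of all genes, with *ATP6V1A* and *SQSTM1* toward the upper side and *PSAP* toward the lower side at their levels.

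The first siRNA library stood at an extreme more often than the others. It was the lowest of the 6 libraries for 13 of the 35 genes (37.1%), where it was the lowest for 27.7% of all genes tested, and the highest for 11 (31.4%), against 26.2%. Without it the 3 calls among the 35 genes held. The summed level of the 35 genes was 4336 ± 289 CPM in the scramble and 4186 ± 397 CPM in the siRNA libraries (SD, n = 3 each), a difference smaller than the spread within either group. The median SD of the log2 level over the 35 genes was 0.165 in the scramble and 0.171 in the siRNA libraries, and over all genes 0.171 and 0.203.

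For 6 of the 35 genes, at least 20% of the canonical exon bases also lie in another annotated gene, and whether the counting used strand is not given in the sources used here. For *SQSTM1* the share was 55.7%, with *MRNIP* on the opposite strand, which had 0 to 11 counts a library. For *CTSD* it was 62.1%, with a gene on the same strand that was at 0 in every library. The others were *BECN1* with *CNTD1*, *ATG7* with *VGLL4*, *WIPI1* with *ARSG* and *CTSA* with *PLTP*, and these neighbors had 1 to 5, 11 to 46, 4 to 13 and 14 to 27 counts. Reads of such genes and their neighbors could have been left out or moved, which was not tested.

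A wider list of 180 other lysosome and autophagy genes held 152 that were tested, of which 5 changed, or 3.29% against 5.36% of all genes. Their median log2 fold change was 0.10, as for the 35 genes, with 96 above 0 and 56 below. Their groups did not overlap for 35 (23.0% against 28.8% of all genes), 27 of them higher and 8 lower. Of all genes tested, 14.7% stood apart as higher and 14.1% as lower. Upper-quartile scaling gave 104 above 0 and 48 below. Among the 28 genes not tested, 12 were listed at 0 in every library, *MAP1LC3A* and *GALC* among them.

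*ATP6V0A1*, a membrane subunit of the V-ATPase, was at 45.9, 55.8 and 49.0 CPM in the scramble and at 102, 73.5 and 74.3 CPM in the siRNA libraries, and rose by 0.73 on the log2 scale (SE 0.16, adjusted p = 0.0191). *RB1CC1*, the gene of the ULK1 complex scaffold FIP200, was at 6.33, 3.98 and 3.93 CPM against 8.60, 9.78 and 14.7 CPM, and rose by 1.19 (SE 0.27, adjusted p = 0.0227) from 13 to 125 counts a library. *ATG16L2*, a paralog of *ATG16L1*, was at 123, 130 and 135 CPM against 154, 192 and 191 CPM, and rose by 0.47 (SE 0.13, adjusted p = 0.0492). In all 3 genes every siRNA library was above every scramble library, and among the siRNA libraries the first was highest for *ATP6V0A1* and lowest for the other two.

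The other 2 genes that changed fell. *CTSC*, the gene of the peptidase cathepsin C that activates other proteases, was at 490, 475 and 506 CPM in the scramble and 357, 336 and 364 CPM in the siRNA libraries (log2 fold change -0.48, SE 0.11, adjusted p = 0.0289). *RHEB*, the small GTPase that activates mTORC1 on the lysosome, was at 227, 249 and 246 CPM against 133, 167 and 192 CPM (log2 fold change -0.56, SE 0.14, adjusted p = 0.0397). The siRNA libraries were below the scramble libraries in both genes, with the wider siRNA spread for *RHEB*. These 5 calls were less stable than that of *SQSTM1*: with 1 library left out, the number of other genes past the threshold was 1 without scramble replicate 1, 0 without scramble replicate 2, 0 without scramble replicate 3, 13 without siRNA replicate 1, 2 without siRNA replicate 2 and 5 without siRNA replicate 3. The count over all genes also fell and rose between these fits, and its range is given with the processing below. Whether these genes moved more than all genes was not tested. In these 6 fits *ATP6V0A1* and *RB1CC1* passed 3 times each, *CTSC* and *RHEB* 2 times each and *ATG16L2* 1 time. With all 6 libraries, DESeq2 called 10 of the 157 other genes to which it gave an adjusted p (6.37%, against 5.8% of all). In edgeR 30 of the 152 other genes tested had an unadjusted p under 0.05, where 22.5% of all genes did.

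**Figure D5:**
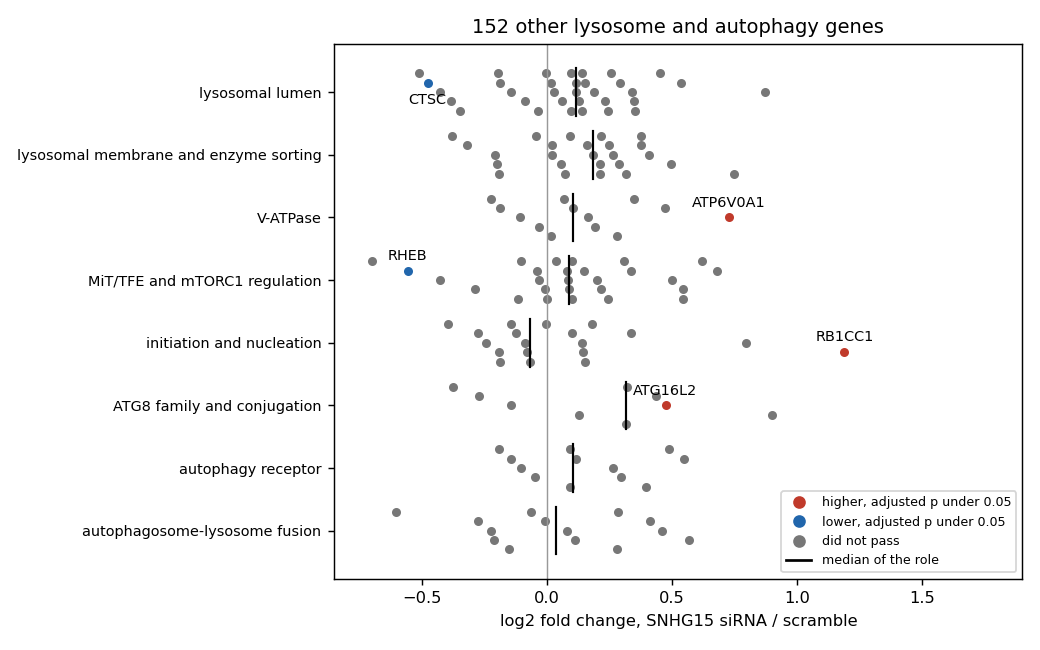
The log2 fold change (x axis) of the 152 other lysosome and autophagy genes tested, 1 point each, by role (y axis), with a black bar at each role's median. *ATP6V0A1*, *RB1CC1* and *ATG16L2* (red) and *CTSC* and *RHEB* (blue) passed an adjusted p of 0.05, and the role medians run from -0.07 to 0.32.

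Taking both lists by role, the V-ATPase held 16 genes tested of 23, of which *ATP6V1A* and *ATP6V0A1* rose and the others did not pass in edgeR. These 2 are 12.5% of the 16, where 5.36% of all genes tested passed, 3.13% higher and 2.23% lower. Of the 16, 12 had log2 fold changes above 0 (13 with upper-quartile scaling) and the median was 0.13. The 20 V-ATPase genes outside the 35 summed to 2200, 2257 and 2239 CPM in the scramble and 2440, 2423 and 2521 CPM in the siRNA libraries. Sums did not overlap for 3 of the 8 roles outside the 35, those of the V-ATPase and the receptors higher and that of the lumen lower in the siRNA libraries. Within the 35, the groups overlapped in the sums of every role. The V-ATPase genes among them summed to 266, 268 and 241 CPM in the scramble and 256, 330 and 321 CPM in the siRNA libraries. How often the sums of other gene sets stand apart was not tested. Outside the 35, the 40 lumen genes summed to 2065, 2087 and 2067 CPM against 1928, 1999 and 2030 CPM. The lumen gene *CTSC* fell from a mean of 490 to 352 CPM, by more than the whole sum, whose mean went from 2073 to 1986 CPM. Of the 33 lumen genes tested outside the 35, 22 had log2 fold changes above 0 and 11 below. The 15 receptor genes outside the 35 summed to 615, 610.2 and 515 CPM against 624, 619.8 and 618 CPM, so that the receptor groups nearly touched. Much of the V-ATPase difference outside the 35 was in *ATP6V1F*, a V1 subunit gene named here after its values were seen. It was at 558 ± 7.01 and 710 ± 41.7 CPM (SD, n = 3 each) and did not pass in edgeR (adjusted p = 0.0899). The lumen held 44 genes tested of 51, of which *PSAP* and *CTSC* fell and the others did not pass in edgeR. These 2 are 4.55% of the 44, against the same 5.36% of all genes. Of the 44, 31 had log2 fold changes above 0 (33 with upper-quartile scaling) and the median was 0.14. Initiation and nucleation genes outside the 35 had a median of -0.07, and the ATG8 and conjugation genes outside the 35 one of 0.32 over 9 genes tested, against -0.17 for the 7 in the list.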

How the data were processed

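The authors deposited raw read counts per Ensembl gene for the 6 libraries, made with a stranded mRNA kit and paired-end NextSeq sequencing and not normalized. The labels name STAR, featureCounts and hg19, whereas the study's methods name bowtie2 as the aligner. The counting annotation, its strand setting and its handling of multiply placed reads are not given in the sources used here. Groups came from the sample titles. Counts were filtered with filterByExpr (minimum count 10, total 15), scaled with TMM (factors 0.961 to 1.06) and tested with edgeR 4.0.16's quasi-likelihood test in R 4.3.3, siRNA against scramble, with no block and Benjamini-Hochberg adjustment over all 12507 genes. Of 63677 genes, 23675 had counts. SEs were derived from each fold change and its F value. P-values set the difference between groups against the spread between these 3 libraries a group, estimated with information from all genes. Gene positions and lengths came from GENCODE 44 on GRCh37. The steps were tested on simulated data. The members, their roles, the wider list and the markers were chosen with earlier results of these data known. 1 gene of the wider list is not reported here and was left out of its counts. All 35 members are named, as are the other listed genes past the threshold. Values in every library are given for members past the threshold, for those with non-overlapping groups and an unadjusted p under 0.05, and for the most abundant of each role. They are also given for *CTSB*, *MCOLN1*, *ATP6V0D1*, *TFEB*, *ATG12*, *ATG16L1* and *GABARAPL2*, which were added outside this rule. DESeq2 1.42.0, RLE and upper-quartile factors, 2 other filters, a replicate block and leaving out each library were tried.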

Additional observations from a re-analysis of the deposited data

How the results depend on the processing

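*SNHG15* passed under every alternative, as did *SQSTM1*. The number of all genes past the threshold was 671, and 139 to 812 with 1 library left out. Among the 35 genes it was 3 (1 to 4), and among the other lysosome and autophagy genes 5 (0 to 13). With no filter on low counts, 1312 genes and 11 of the other pathway genes passed, with DESeq2 10 and with upper-quartile factors 8 of the other pathway genes. Upper-quartile factors called 515 genes higher and 230 lower, against 392 and 279 with TMM, and moved the median of the other genes to 0.14. With 1 library left out the median log2 fold changes were 0.03 to 0.10 for the 35 genes. The median log2 fold change of the other pathway genes was 0.063 to 0.11, lowest without scramble replicate 3. Values near 0 turned. With upper-quartile factors *GABARAPL2* was at 0.0043. With 1 library left out, the log2 fold changes ran from -0.29 to 0.076 for *CTSL* and from -0.26 to 0.087 for *LAMP2*, both above 0 without siRNA replicate 1. They ran from -0.33 to 0.016 for *ATG13*, above 0 without scramble replicate 2, and from -0.23 to 0.10 for *UVRAG*, above 0 without scramble replicate 2 or siRNA replicate 1. They ran from -0.10 to 0.060 for *GABARAPL2*, above 0 without scramble replicate 3 or siRNA replicate 1, and from -0.028 to 0.26 for *ATP6V1H*, below 0 without scramble replicate 3 or siRNA replicate 2. The cause was not tested. The labels do not say whether same-numbered libraries were made together. Correlations of same-numbered deviations were -0.07, 0.16 and -0.04, and such weak values cannot decide it. With the replicate block in edgeR 543 genes passed, 3 of the 35 and 4 of the others. In that fit *CTSC* and *ATG16L2* had adjusted p-values of 0.0583 and 0.0699. *CTSD* passed with upper-quartile factors (adjusted p = 0.0479) and DESeq2 (0.0329), and *RHEB* did not pass with upper-quartile factors (0.0503) or with at least 10 counts in every library (0.0516). *BECN1*, *WIPI1* and *TFEB* had the fewest counts of the 35, 5 to 49 a library, and the widest intervals, and what kept their counts low was not tested.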
